A study of Mus musculus with 16 samples.

Results

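The 42 mouse genes described here encode proteins that license and fire replication origins, copy DNA at the replication fork, and rebuild chromatin behind the fork. They were chosen by gene symbol alone, in 8 roles: origin recognition and licensing, origin firing, polymerases and primase, the sliding clamp and its loader, Okazaki fragment processing, single-strand binding, fork protection, and chromatin assembly with maintenance methylation. Subunits of the MCM helicase and enzymes of nucleotide synthesis were not included. A gene was read from probe sets annotated to it alone, and where it had several, from the one with the highest mean over the 16 arrays. This gave values for 41 of the 42 genes, among 18193 genes measured in all. Chaf1a, a subunit of chromatin assembly factor CAF-1, was not analysed here. The 41 genes are called the replication genes below.

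Liver RNA was taken at days 0, 2, 7 and 14 after partial hepatectomy, an operation that removes part of the liver and makes the remnant grow back, from mice of 4 arms. All mice had a mixed 129SV/C57BL/6 background and the genotype label Metff/ff:ERCre+/+, that is, Met alleles that a tamoxifen-inducible Cre recombinase can delete. MET_KO mice had lost exon 16 of Met, the gene of the hepatocyte growth factor receptor, and MET_FLOX mice served as their controls. MET_FLOX_canertinib and MET_KO_canertinib mice were in addition fed canertinib, a kinase inhibitor of the EGF receptor family, with an intended dose of 80 mg/kg. The inhibition was described as systemic, not confined to hepatocytes, and the sources used here give neither the age nor the sex of the mice, nor the treatment of the MET_FLOX mice with tamoxifen. Each arm had 1 array per day, and nothing states whether its RNA came from a single animal or from pooled animals, so errors and p-values reflect how these arrays vary and nothing more. The study asked how liver regrowth proceeds when MET and EGFR signalling are blocked alone or together.

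DNA replication starts where the origin recognition complex, with CDC6 and CDT1, loads the helicase in G1, and it is switched on in S phase by the DBF4-dependent kinase and the CDC45 and GINS helicase cofactors. Polymerase alpha with primase then lays primers, polymerases delta and epsilon extend them on the PCNA clamp, and nucleosomes and DNA methylation are restored on the new strands. Adult hepatocytes are mostly quiescent and enter S phase in a partly synchronous wave after hepatectomy, and E2F factors are known to drive many of these genes at the G1/S transition. In whole liver RNA, fewer cells of a type and less RNA per cell cannot be told apart.

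The values are MAS5 signals, scaled by the authors to a common trimmed mean per array, and differences are of log2(signal + 16), which understates changes of low signals. Array medians lay either at 156.4 to 188.7, for 6 arrays (days 0, 2 and 7 of the arms without canertinib), or at 244 to 265.1, for the other 10. These are called the low and the high array set. Day 2 and day 0 of an arm thus always lay in the same set, while day 14 of MET_FLOX and MET_KO did not lie in the set of their day 0. The Gapdh 3'/5' signal ratio, a sign of RNA or labelling quality, was 0.765 to 0.869 without canertinib and 0.950 to 2.24 with it. Marker genes of hepatocytes summed to signals of 152046 to 509636 on the 16 arrays. Met gave signals of 982 to 2066 in knockout arms and 1041 to 2014 in flox arms. Whether its probe set lies in exon 16 is not stated in the sources used here, so these signals do not check the deletion.

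Most replication genes had higher signals at day 2 than at day 0 in 3 of the 4 arms, and few did by much in MET_KO_canertinib. The median change from day 0 to day 2 over the 41 genes, on the log2 scale, was 1.55 for MET_FLOX and 1.65 for MET_KO. With canertinib it was 0.86 for MET_FLOX and 0.15 for MET_KO mice. Over all 18193 genes the medians in the same order were -0.16, -0.09, 0.02 and 0.04. More than 1 log2 unit higher at day 2 were 26 of 41 genes in MET_FLOX, where 5.72% of all 18193 genes were, and 30 of 41 in MET_KO, where 8.17% of all genes were. In MET_FLOX_canertinib these were 17 of 41, against 8.62% of all genes, and in MET_KO_canertinib 2 of 41, against 7.39% of all genes. The 2 were Rfc2 and Rpa2, and another probe set of Rpa2 was flat in MET_KO_canertinib. In probe sets not used, Dnmt1, Pola1, Pola2 and Timeless also rose by more than 1 log2 unit in that arm. Others, of Cdc7, Dbf4, Prim2 and Rfc3, fell by more than 1 there. More than 1 log2 unit lower were 0 of 41 in MET_FLOX (9.73% of all genes), 1 in MET_KO, Orc1 (8.5%), 0 in MET_FLOX_canertinib (7.79%) and 2 in MET_KO_canertinib, Orc5 and Gins3 (6.13%). Another probe set of Gins3 was 0.56 log2 units higher in MET_KO_canertinib. Each of these changes compares 1 array with 1 array and has no replicate check.

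Day 2 was the highest of the 4 days for 33 of 41 genes in MET_FLOX, 36 in MET_KO and 29 in MET_FLOX_canertinib. Of all genes, 17.1%, 20% and 25.5% had their highest day there. In MET_KO_canertinib it was the highest day for 12 of 41, against 22.3% of all genes, and the others were spread over day 0 with 4, day 7 with 12 and day 14 with 13. The day 2 arrays of MET_FLOX, MET_KO and MET_FLOX_canertinib lay above all 13 other arrays for 22 of 41 genes, as they did for 1.51% of all genes. The day 2 arrays of all 4 arms lay above the other 12 for 3 genes, Prim1, Rpa1 and Rpa2, and for 0.242% of all genes. Each of the 3 had another probe set in which day 2 of MET_KO_canertinib lay below some arrays of other days. The grouping of 3 arms apart from the fourth was chosen with their values known, so these counts are descriptions.

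**Figure D1:**
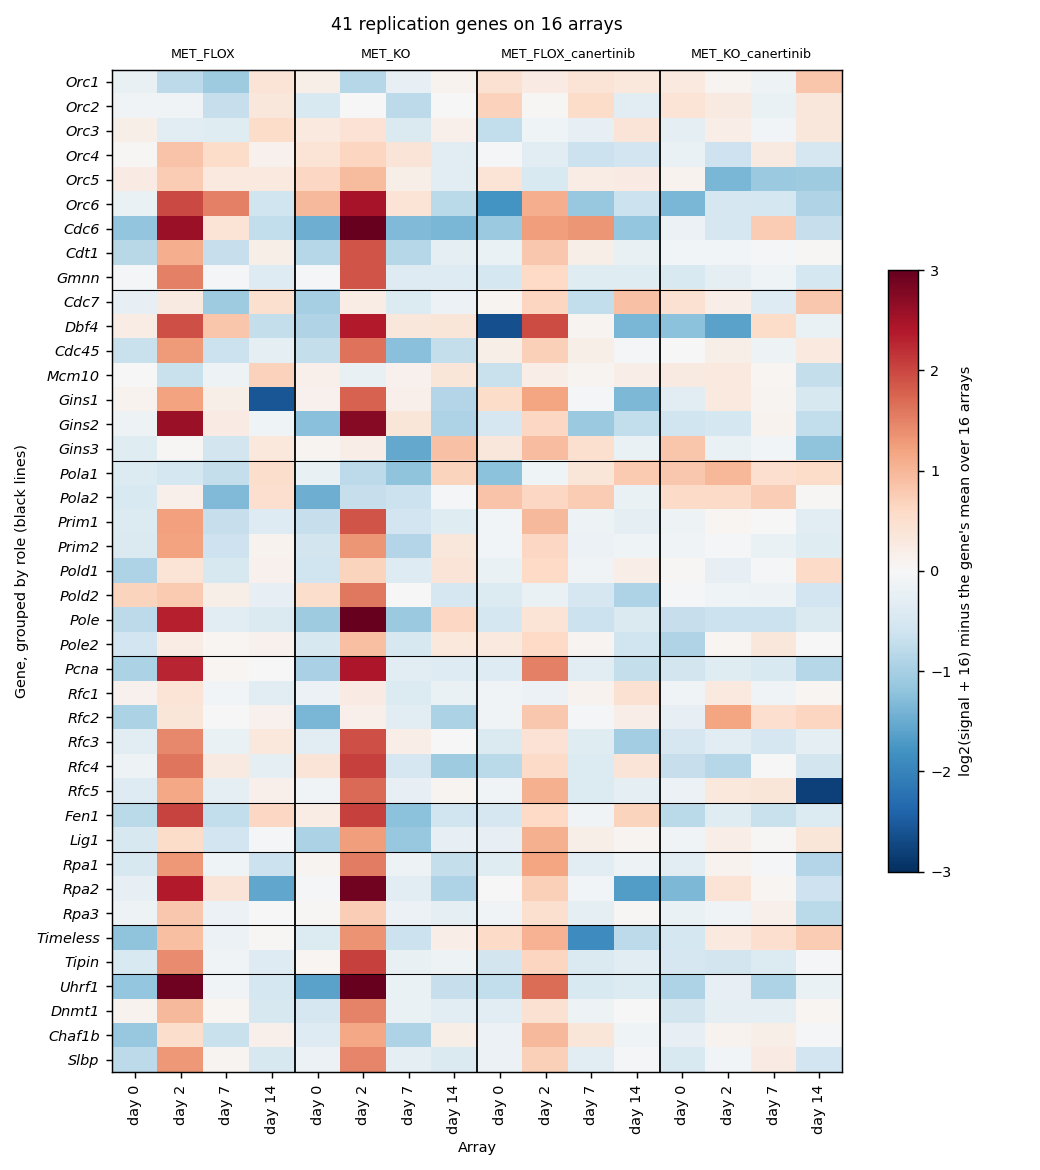
Rows are the 41 measured replication genes grouped by role and columns are the 16 arrays, and colour is log2(signal + 16) minus the gene's mean over the 16 arrays, with colours limited to 3 log2 units on either side. The day 2 columns of MET_FLOX, MET_KO and MET_FLOX_canertinib are red for most genes, and the day 2 column of MET_KO_canertinib is not.

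Across the 41 genes, which share the arrays of an arm and are no independent replicates, the day 2 changes of MET_FLOX and MET_KO correlated with r = 0.89 (Pearson) and rho = 0.84 (Spearman). Pearson's r was 0.55 between MET_FLOX and MET_FLOX_canertinib and 0.56 between MET_KO and MET_FLOX_canertinib, and 0.16 to 0.26 for the pairs with MET_KO_canertinib. The largest of the 4 changes was found in MET_KO for 24 of 41 genes, against 23.8% of all genes, and the smallest in MET_KO_canertinib for 30 of 41, against 21.3% of all genes. In MET_FLOX, MET_KO and MET_FLOX_canertinib alike, 16 of 41 genes were more than 1 log2 unit higher at day 2, as were 0.973% of all genes. These were Orc6, Cdc6, Cdt1, Gmnn, Dbf4, Gins2, Prim1, Pcna, Rfc4, Rfc5, Fen1, Lig1, Rpa1, Tipin, Uhrf1 and Chaf1b, and none of the 16 passed 1 log2 unit in MET_KO_canertinib. Over all genes, 177 passed 1 log2 unit in the 3 arms, and 143 of the 177 did not in MET_KO_canertinib, so most such genes share this.

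**Figure D2:**
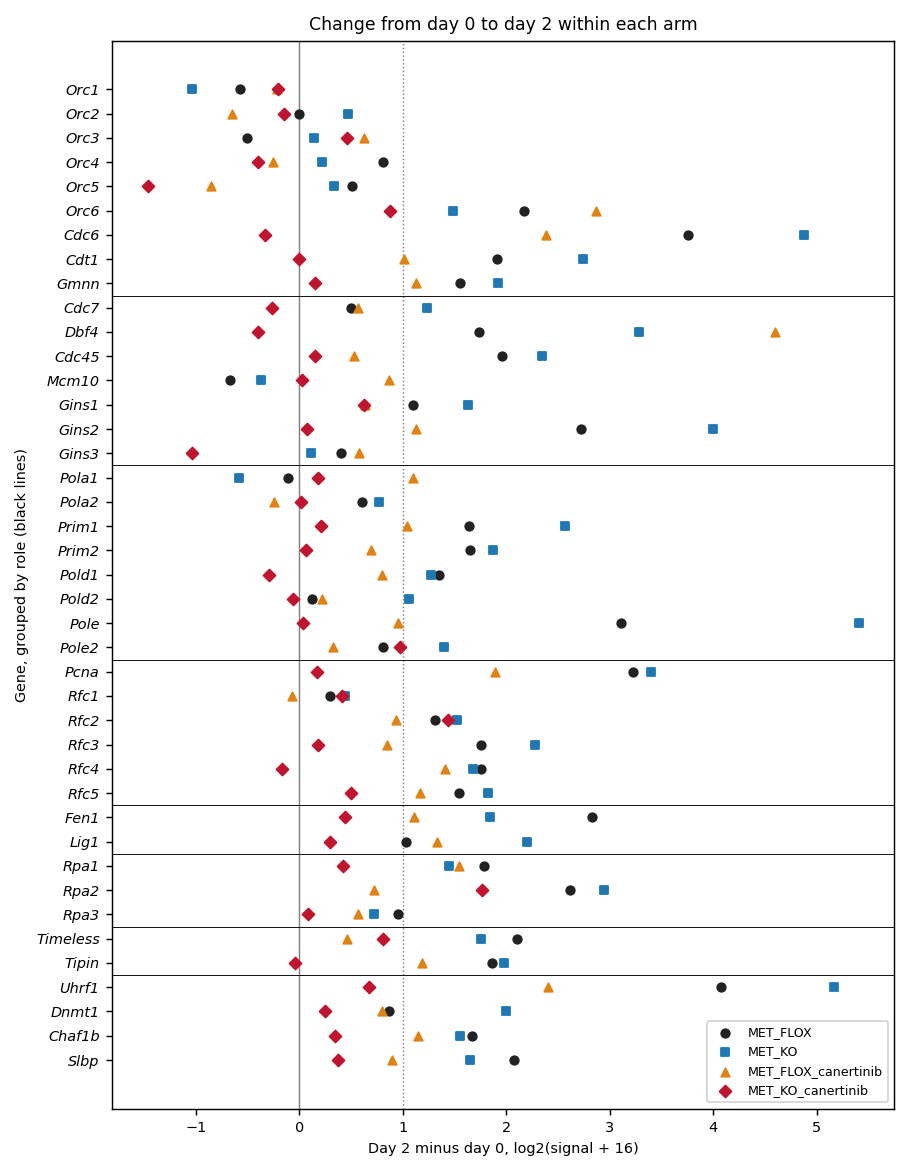
The change from day 0 to day 2, as a difference of log2(signal + 16) between 2 arrays, is plotted for each of the 41 genes in each arm, with a dotted line at 1. Symbols of MET_KO_canertinib lie near 0 for most genes, with Rfc2 at 1.44 and Rpa2 at 1.76 as the only 2 above 1. Each gene is shown by the probe set used. In MET_KO_canertinib another probe set of Rpa2 was flat, and another of Dnmt1 rose by 2.67.

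Day 2 was tested against day 0 over the 4 arms with limma, with arm and day as terms and 9 residual degrees of freedom, and p-values were adjusted by Benjamini-Hochberg over 13575 genes. Of the 41 replication genes, 35 had at least 4 arrays above the array's own median and were tested. Orc6, Cdc6, Cdc7, Pola2, Pole and Rpa2 did not pass. The filter keeps a gene that is high only at day 2 in 4 arms and drops one that is high only at day 2 in 3, so the tested genes are not a neutral sample of the 41. At an adjusted p below 0.05, 4 of 35 rose at day 2, where 0.331% of all genes tested rose, and 0 fell, where 0.0516% did. At an unadjusted p below 0.05, 25 were higher, against 5.34% of all genes, and 1 was lower, against 5.16%. The 4 were Rfc2, Pcna, Uhrf1 and Rpa1. The median difference over the 35 was 1.18 on the log2 scale and over all genes tested -0.06. The call rested on single arrays: 0 of 35 were called without the day 2 array of MET_FLOX, of MET_KO or of MET_FLOX_canertinib, or the day 0 array of MET_KO. The count was 1 without the day 0 array of MET_FLOX or of MET_FLOX_canertinib, and 17 without the day 2 array of MET_KO_canertinib. Calls over all 13575 genes, in either direction, moved too, from 52 to 3, 0, 0, 4, 15, 10 and 171 in the same order. In these settings 20 to 26 of the 35 had an unadjusted p below 0.05 in either direction, against 26 with every array.

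Leaving out the whole MET_KO_canertinib arm, an alternative added after its values were seen, 17 of 35 genes were called higher at day 2 by limma, against 0.987% of all genes, and 0 lower. They were Cdt1, Gmnn, Dbf4, Gins2, Prim1, Prim2, Pold1, Pcna, Rfc2, Rfc3, Rfc5, Lig1, Rpa1, Tipin, Uhrf1, Dnmt1 and Slbp, which take in all 8 roles but none of the 5 tested ORC subunits. Pcna then differed by 2.84 (SE 0.26, adjusted p = 0.000223) and Uhrf1 by 3.88 (SE 0.44, adjusted p = 0.000747) on the log2 scale. With MET_FLOX and MET_KO alone, limma called 21 of 35 higher, against 1.53% of all genes. With the canertinib arms alone it called 0, against 0% of all genes. At an unadjusted p below 0.05 it had 5 higher, against 2.79% of all genes, and 1 lower, against 2.62%.

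Against the mean of days 0, 7 and 14, limma called 7 of 35 higher at day 2, where 0.442% of all genes were called higher, and 0 lower, where 0.0958% were. At an unadjusted p below 0.05, 26 were higher, against 5.96% of all genes, and 1 lower, against 8.49%. The 7 called at the adjusted threshold were Rpa1, Pcna, Uhrf1, Prim1, Rfc2, Slbp and Gmnn. By this comparison too, 0 were called without the day 2 array of MET_FLOX, MET_KO or MET_FLOX_canertinib, 21 without that of MET_KO_canertinib, and 12 without its day 14 array. With the array set as a term, 2 were called. The shares of all genes called under these settings are not given here, so these counts are not to be read as particular to the replication genes.

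**Figure D3:**
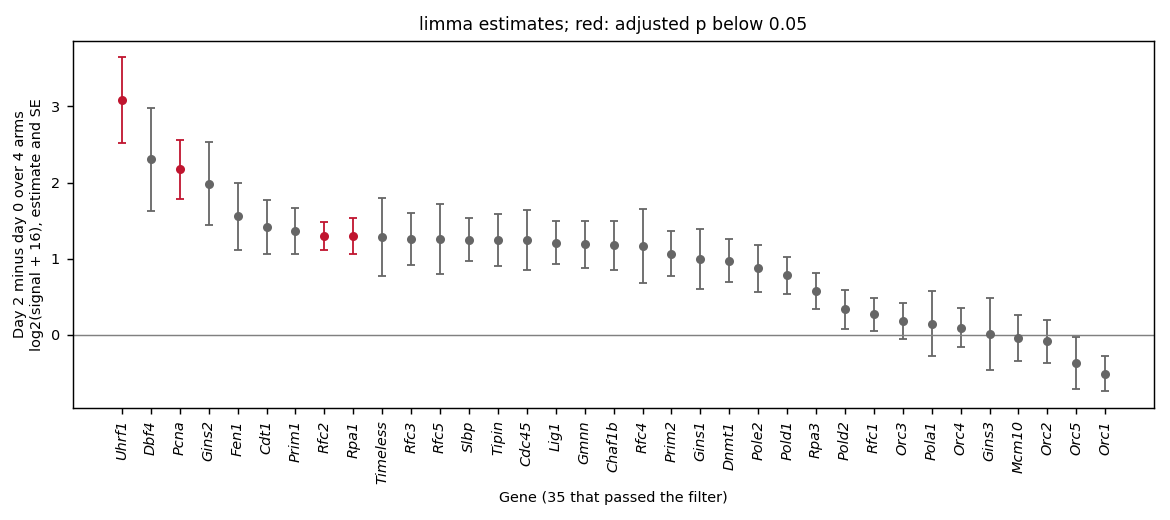
Estimated day 2 minus day 0 differences over the 4 arms, on the log2(signal + 16) scale with standard errors, for the 35 replication genes tested, ordered by size, with the genes at a limma adjusted p below 0.05 in red. Rfc2, Pcna, Uhrf1 and Rpa1 are red, and Dbf4 and Gins2 have large estimates with standard errors of 0.67 and 0.54.

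The promoters were searched for letters that these genes share, and 5 are printed here. Uhrf1, Cdt1 and Rfc3 hold an E2F-type word and were at least 0.85 log2 units higher at day 2 in every arm but MET_KO_canertinib. In that arm they differed by 0.68, -0.00 and 0.18. Orc1 holds one and was lower in the probe set used, and Pcna holds none and was higher. RefSeq windows from 250 bases before to 50 after the transcript start were at hand for 35 of the 42 genes, on build GRCm38.p6. Both strands were searched for 4 E2F-type words, TTTCCCGC, TTTGGCGC, TTTCGCGC and TTTGCCGC. A word stood in the window of 12 of the 35 genes, or 34.3%, and in that of 2.6% of 27025 genes of the whole table. A CCAAT box, searched as CCAAT on both strands, was found in 57.1% of the 35 and in 41.1% of all genes, and the cell cycle homology word TTTGAA in 20% and in 20.2%. The 3 searches share no word, and their matches may overlap in a window. Each promoter below reads in the direction of its gene, with E2F-type words on either strand in capitals.

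Uhrf1 (chr17:56304063-56304362, plus strand), Cdt1 (chr8:122567765-122568064, plus strand), Rfc3 (chr5:151651159-151651458, minus strand), Orc1 (chr4:108579204-108579503, plus strand) and Pcna (chr2:132253131-132253430, minus strand) have these windows.
Uhrf1: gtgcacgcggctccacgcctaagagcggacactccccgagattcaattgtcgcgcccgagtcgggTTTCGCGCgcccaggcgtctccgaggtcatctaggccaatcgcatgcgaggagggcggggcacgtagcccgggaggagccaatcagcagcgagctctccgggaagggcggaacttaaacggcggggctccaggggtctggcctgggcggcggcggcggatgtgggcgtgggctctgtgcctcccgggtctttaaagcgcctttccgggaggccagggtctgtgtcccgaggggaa
Cdt1: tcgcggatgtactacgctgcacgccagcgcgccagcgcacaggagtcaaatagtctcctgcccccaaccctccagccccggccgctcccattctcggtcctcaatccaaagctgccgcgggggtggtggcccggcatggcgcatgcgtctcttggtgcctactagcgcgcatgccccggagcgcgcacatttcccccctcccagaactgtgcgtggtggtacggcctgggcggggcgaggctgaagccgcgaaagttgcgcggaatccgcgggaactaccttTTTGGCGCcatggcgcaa
Rfc3: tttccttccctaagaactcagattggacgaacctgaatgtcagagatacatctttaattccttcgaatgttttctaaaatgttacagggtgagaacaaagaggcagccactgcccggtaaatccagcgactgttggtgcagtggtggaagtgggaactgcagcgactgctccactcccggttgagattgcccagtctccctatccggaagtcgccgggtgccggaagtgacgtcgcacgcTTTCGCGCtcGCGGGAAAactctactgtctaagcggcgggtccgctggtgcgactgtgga
Orc1: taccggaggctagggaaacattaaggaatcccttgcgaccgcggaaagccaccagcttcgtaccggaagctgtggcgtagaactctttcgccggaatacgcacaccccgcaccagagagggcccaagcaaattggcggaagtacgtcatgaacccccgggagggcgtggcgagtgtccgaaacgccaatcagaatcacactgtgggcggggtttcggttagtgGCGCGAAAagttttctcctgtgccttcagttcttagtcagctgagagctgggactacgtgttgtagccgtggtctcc
Pcna: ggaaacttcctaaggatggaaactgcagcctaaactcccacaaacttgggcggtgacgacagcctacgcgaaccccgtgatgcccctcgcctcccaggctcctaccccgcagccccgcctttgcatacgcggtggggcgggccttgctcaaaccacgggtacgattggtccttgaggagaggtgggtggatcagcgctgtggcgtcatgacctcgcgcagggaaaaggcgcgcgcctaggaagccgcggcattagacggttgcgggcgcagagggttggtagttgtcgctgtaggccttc

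Counted from the start base as 0, the word begins at -185 in Uhrf1, at 32 in Cdt1, at -27 in Orc1 and at -10 and 0 in Rfc3, where the pair lies side by side on opposite strands. Pcna has none of the 4 words in this window and has a CCAAT box on the minus strand at -87. In MET_FLOX the median day 2 change was 0.95 for the 12 genes with a word and 1.66 for the 22 measured genes without one. In MET_KO it was 1.70 and 1.52, in MET_FLOX_canertinib 0.82 and 0.79, and in MET_KO_canertinib 0.18 and 0.16. Orc1, with a word, was lower at day 2 in MET_FLOX by the probe set used and higher by its other one, from 83.7 to 186. Pcna, with none, was at 9.34 times its day 0 level (signal + 16). A match is only a match of letters, and no match says only that these words are not in this window.

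Of the 9 genes of origin recognition and licensing, 4 were more than 1 log2 unit higher at day 2 in each of the first 3 arms and 0 in MET_KO_canertinib. The 4 were Orc6, Cdc6, Cdt1 and Gmnn. Cdt1 encodes the licensing factor that brings the helicase to the origin, and its promoter is printed above. In what follows, the first 3 arms are MET_FLOX, MET_KO and MET_FLOX_canertinib, and 4 values in a row are days 0, 2, 7 and 14. Its signal was 644, 2464, 705 and 1316 on the MET_FLOX arrays and 629.9, 4316, 637 and 959 on the MET_KO arrays. With canertinib it was 1001, 2032, 1301 and 997 on the MET_FLOX_canertinib arrays and 1089, 1086, 1111 and 1185 on the MET_KO_canertinib arrays. The day 2 arrays of the first 3 arms were the 3 highest of the 16, and MET_KO_canertinib stayed flat in the probe set used. Another Cdt1 probe set that passed the filter went from 115.6 to 182.1 between days 0 and 2 in that arm. In the probe set used, the difference over 4 arms was 1.42 (SE 0.36, limma adjusted p = 0.144), and without MET_KO_canertinib 1.89 (SE 0.33, adjusted p = 0.0132).

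Gmnn encodes geminin, which binds CDT1 and prevents relicensing in the same cycle. Its signals at the 4 days were 454, 1359.7, 449.7 and 352 on the MET_FLOX arrays and 454, 1767, 353 and 352 on the MET_KO arrays. Under canertinib they read 321, 719, 363 and 360.3 on the MET_FLOX_canertinib arrays and 337, 377, 423 and 319 on the MET_KO_canertinib arrays. Again the same 3 day 2 arrays lay above all others. Against the mean of the other days the difference was 1.23 (limma adjusted p = 0.0447).

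Orc1 encodes the largest ORC subunit, an ATPase. The probe set used gave 755, 503, 409 and 1179 on the MET_FLOX arrays and 996, 477, 733 and 952 on the MET_KO arrays, and 1224, 1054, 1175 and 1103 on the MET_FLOX_canertinib arrays and 1073, 928, 789 and 1585 on the MET_KO_canertinib arrays. It was lower at day 2 than at day 0 in all 4 arms, with a difference of -0.51 (SE 0.23, limma adjusted p = 0.45). It was the gene that was lower at an unadjusted p below 0.05. Its other probe set went the opposite way in 3 arms, from 83.7 to 186, from 114 to 229.5 and from 134 to 300.4, and from 293 to 187 in MET_KO_canertinib, so the direction for Orc1 depends on the probe set. Orc2, Orc3, Orc4 and Orc5, subunits of the same complex, had differences of -0.08, 0.18, 0.09 and -0.37, none of which passed the test. For Orc3 and Orc4 too, another probe set had the opposite sign without canertinib.

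Orc6 and Cdc6, which encode the small ORC subunit and the loader ATPase, were mostly below the array medians outside day 2 and did not enter the test. Cdc6 had signals of 14.4, 395, 75.1 and 25.0 on the MET_FLOX arrays and 8.7, 712, 11.5 and 10.6 on the MET_KO arrays. In the canertinib arms they were 15.6, 149, 155 and 14.8 on the MET_FLOX_canertinib arrays and 44.8, 32.3, 99.4 and 26.4 on the MET_KO_canertinib arrays. Orc6 went from 65.7 to 353, from 168 to 500.1 and from 11.1 to 182 between days 0 and 2 in the first 3 arms, and from 20.1 to 50.3 in MET_KO_canertinib. Both were at or below 248 on all arrays other than these 3 day 2 arrays. With no filter, Cdc6 differed by 2.67 (SE 0.72, limma adjusted p = 0.194) and Orc6 by 1.85 (SE 0.51, adjusted p = 0.201) at day 2 over the 4 arms.

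Of the 7 genes of origin firing, 4 were more than 1 log2 unit higher at day 2 for MET_FLOX, 5 for MET_KO, 2 for MET_FLOX_canertinib and 0 for MET_KO_canertinib. Mcm10 and Gins3 were so in none. Dbf4, the activator of the CDC7 kinase, had signals of 266, 921, 419.7 and 133 on the MET_FLOX arrays and 114, 1248, 289.8 and 299 on the MET_KO arrays. Its canertinib arms gave 23.0, 928, 243 and 77.4 on the MET_FLOX_canertinib arrays and 88.5, 63.4, 339 and 197 on the MET_KO_canertinib arrays. MET_FLOX_canertinib at day 2 was as high as MET_FLOX at day 2, whereas MET_KO_canertinib fell from 88.5 to 63.4. The difference over 4 arms was 2.30 (SE 0.67, limma adjusted p = 0.207).

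Gins1, a subunit of the GINS helicase cofactor, gave 294, 646, 306 and 32.6 on the MET_FLOX arrays and 301, 961, 303 and 141 on the MET_KO arrays. With the inhibitor it gave 404, 634, 264 and 97.7 on the MET_FLOX_canertinib arrays and 211, 334, 286 and 191 on the MET_KO_canertinib arrays. The 3 day 2 arrays without MET_KO_canertinib were the highest, but the day 14 signals were low as well, and the day 2 difference of 0.99 did not pass (SE 0.40, limma adjusted p = 0.375). Gins2 went from 167 to 1196 in MET_FLOX, from 68.6 to 1339.6 in MET_KO, from 127.5 to 297 in MET_FLOX_canertinib and from 119 to 125.5 in MET_KO_canertinib. Cdc45, the helicase cofactor that joins GINS, went from 143 to 599.7, from 137 to 763, from 270.5 to 396 and from 240.5 to 269 in the same order of arms, while its other probe set had the opposite sign in the mean of MET_FLOX and MET_KO. Cdc7, the kinase itself, stayed between 42.9 and 211 on all arrays and did not enter the test.

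Mcm10, which helps the helicase and polymerase alpha to start, had no common peak at day 2. They were 3177, 1989, 2825 and 5082 on the MET_FLOX arrays and 3498, 2692, 3436 and 4035 on the MET_KO arrays. In the arms with canertinib they were 1972, 3597, 3354 and 3635 on the MET_FLOX_canertinib arrays and 3794, 3862, 3273 and 1897 on the MET_KO_canertinib arrays. Day 2 was the lowest day in MET_FLOX and MET_KO, and the groups overlapped fully (difference -0.04, SE 0.30, limma adjusted p = 0.976).

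Of the 8 genes of polymerases and primase, 4 were more than 1 log2 unit higher at day 2 for MET_FLOX, 6 for MET_KO, 2 for MET_FLOX_canertinib and 0 for MET_KO_canertinib. Prim1, the catalytic primase subunit, had signals of 679, 2154, 559.7 and 691 on the MET_FLOX arrays and 561, 3409.5, 606 and 699.8 on the MET_KO arrays. It gave 867, 1806, 817 and 758 on the MET_FLOX_canertinib arrays and 819, 952, 898 and 713 on the MET_KO_canertinib arrays. All 4 day 2 arrays lay above the other 12, though MET_KO_canertinib by little, at 952 against 898 at its day 7. The differences were 1.37 against day 0 (SE 0.30, limma adjusted p = 0.0802) and 1.38 against the mean of the other days (adjusted p = 0.019).

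Pold1, the catalytic subunit of polymerase delta, had signals of 325, 855, 448 and 693 on the MET_FLOX arrays and 414, 1021, 479.5 and 828 on the MET_KO arrays. With canertinib these were 554, 976, 586 and 729.7 on the MET_FLOX_canertinib arrays and 652, 530.0, 619.6 and 953 on the MET_KO_canertinib arrays. The groups overlapped, since day 14 of MET_KO_canertinib, at 953, lay above day 2 of MET_FLOX, at 855. The difference was 0.78 (SE 0.24, limma adjusted p = 0.234). Another Pold1 probe set, which did not pass the filter, lacked this overlap. It read 271.2, 273.1 and 230.8 at day 2 in the first 3 arms and at most 53.8 on every other array. Prim2, the other primase subunit, went from 353 to 1140.2 and from 327 to 1238 in MET_FLOX and MET_KO, and from 448 to 468.5 in MET_KO_canertinib. Its other probe sets that passed the filter disagreed in sign. Pole, the catalytic subunit of polymerase epsilon, was at or below 77.1 except at day 2, where MET_FLOX read 289.5, MET_KO 1216, MET_FLOX_canertinib 64.9 and MET_KO_canertinib 22.6. It did not pass the filter, nor did Pola2, the B subunit of polymerase alpha, and with no filter they differed by 2.38 (SE 0.69, limma adjusted p = 0.231) and 0.29 (SE 0.45, adjusted p = 0.91). Another Pola2 probe set, which also failed the filter, went from 57.9 to 290.5 in MET_FLOX and from 100.2 to 462.3 in MET_KO. In MET_FLOX_canertinib it went from 45.4 to 44.6 and in MET_KO_canertinib from 38.2 to 36.6. A further Pola2 probe set, below the filter too, went from 39.4 to 245.1 in MET_KO_canertinib and did not rise like this in the other arms. Pola1, the catalytic subunit of polymerase alpha, went both ways in its chosen probe set, with day 2 changes of -0.11, -0.58, 1.10 and 0.18 in the order of arms (difference 0.15, limma adjusted p = 0.936), whereas its other probe set, which did not pass the filter, went from 205 to 412, from 27.8 to 944, from 46.8 to 196.5 and from 41.7 to 143 between days 0 and 2.

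The clamp and its loader held 2 of the 4 called genes, Pcna and Rfc2, whose day 2 changes in MET_KO_canertinib were 0.17 and 1.44 on the log2 scale. Pcna, the sliding clamp, had signals of 978, 9267, 1975 and 1891 on the MET_FLOX arrays and 962, 10301, 1495 and 1455 on the MET_KO arrays. With the inhibitor they were 1448, 5419.8, 1506 and 1146 on the MET_FLOX_canertinib arrays and 1294, 1461, 1367 and 1039.7 on the MET_KO_canertinib arrays. The day 2 arrays of the first 3 arms lay above all 13 others, at 9.34, 10.6 and 3.71 times day 0 (signal + 16), and MET_KO_canertinib at day 2 lay within the range of the 12 arrays of other days, at 1.13 times. The difference over 4 arms was 2.17 (SE 0.39, limma adjusted p = 0.0272).

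Rfc2, a small subunit of the clamp loader RFC, had signals of 679.5, 1707, 1324 and 1444 on the MET_FLOX arrays and 506, 1483, 1058 and 677 on the MET_KO arrays. Under canertinib it gave 1224, 2347, 1283 and 1531 on the MET_FLOX_canertinib arrays and 1109, 3029, 1891 and 2069.7 on the MET_KO_canertinib arrays. Its highest array was day 2 of MET_KO_canertinib, and day 2 was the highest day in each arm, although the arms overlapped in level. The day 2 difference was 1.30 (SE 0.19, limma adjusted p = 0.00989), the smallest adjusted p of the replication genes, and leaving out MET_KO_canertinib left it at 1.25 (SE 0.23, adjusted p = 0.0186). Rfc3, Rfc4 and Rfc5, the other small subunits, had differences of 1.26, 1.17 and 1.26 that did not pass over 4 arms, with MET_KO_canertinib changes of 0.18, -0.17 and 0.50. Rfc1, the large subunit, had a difference of 0.27 and did not pass.

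**Figure D4:**
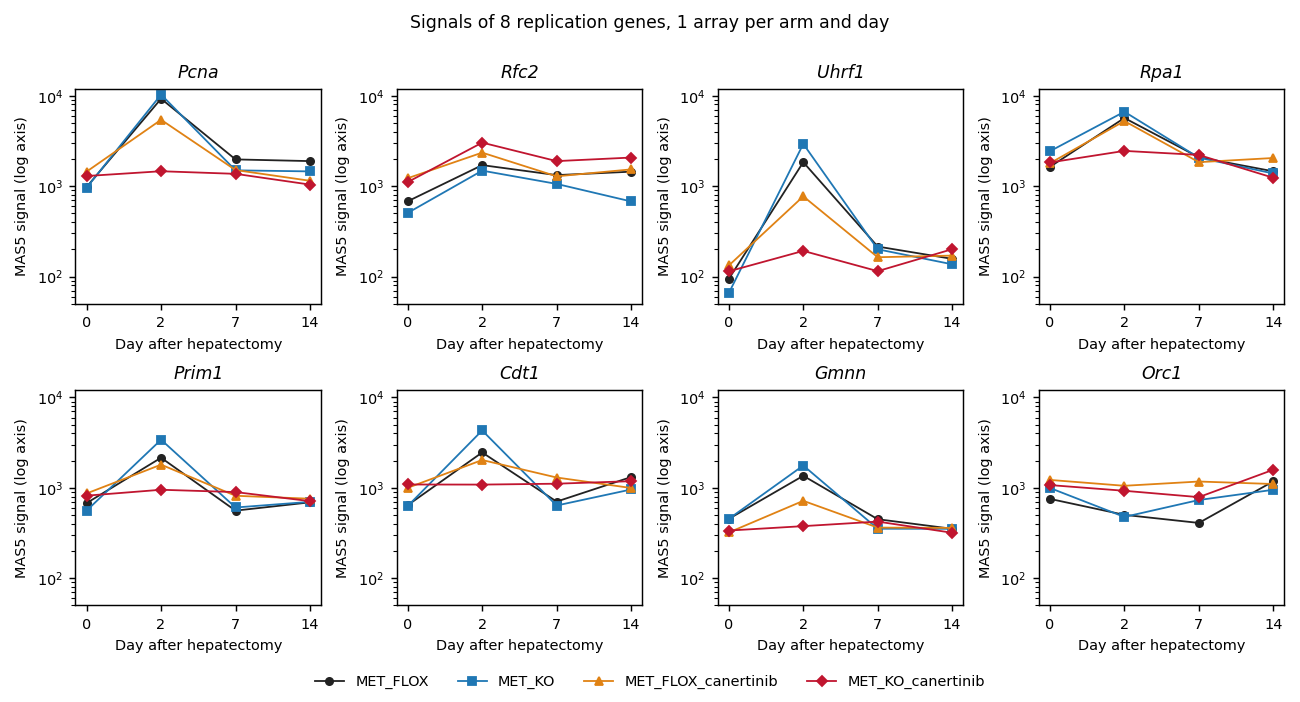
MAS5 signal on a log axis against day after hepatectomy for 8 replication genes, with 1 line per arm and 1 array per point. Pcna, Uhrf1, Rpa1, Prim1, Cdt1 and Gmnn peak at day 2 in 3 arms with a flat or low line for MET_KO_canertinib. Rfc2 peaks at day 2 in all 4 arms. Orc1 has no day 2 peak in any arm in the probe set shown, while its other probe set peaks at day 2 in all arms but MET_KO_canertinib.

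Okazaki fragment processing was represented by Fen1, the flap endonuclease, and Lig1, the ligase that seals the nicks. Fen1 had signals of 367, 2707, 383 and 1012 on the MET_FLOX arrays and 756, 2758, 268 and 426 on the MET_KO arrays. In the canertinib arms it read 455, 996, 605 and 1038 on the MET_FLOX_canertinib arrays and 364, 501, 399 and 488 on the MET_KO_canertinib arrays. Day 14 signals of 1012 and 1038 in the flox arms lay above day 2 of MET_FLOX_canertinib, so the groups overlapped, and the difference was 1.56 (SE 0.44, limma adjusted p = 0.196). The other Fen1 probe set, which also passed the filter, lacked this overlap. It read 1164, 1348.5, 602 and 157 at day 2 in the order of arms, and 14.8, 44.7, 27.8 and 66.2 at day 14.

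Lig1 gave 586, 1216, 549 and 805 on the MET_FLOX arrays and 421, 1984, 366 and 690.2 on the MET_KO arrays. Its values with canertinib were 686, 1744, 938 and 867 on the MET_FLOX_canertinib arrays and 764, 939.8, 849 and 1061 on the MET_KO_canertinib arrays. The same 3 day 2 arrays were the highest of the 16, with a difference of 1.21 (SE 0.28, limma adjusted p = 0.0974). Without MET_KO_canertinib it was 1.52 (SE 0.28, adjusted p = 0.0162).

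The RPA trimer coats single-stranded DNA. Rpa1, its large subunit, had signals of 1634, 5671, 2088 and 1458 on the MET_FLOX arrays and 2433, 6655, 2065 and 1380.3 on the MET_KO arrays. With the inhibitor it had 1791, 5249, 1841 and 2046 on the MET_FLOX_canertinib arrays and 1827, 2453, 2212 and 1237 on the MET_KO_canertinib arrays. Day 2 lay above all other arrays in every arm, but in MET_KO_canertinib it was 2453 against 2433 at day 0 of MET_KO. The difference was 1.30 (SE 0.24, limma adjusted p = 0.0275), and with the mean over its probe sets 1.04 (adjusted p = 0.172).

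Rpa3, the small subunit, gave 399.7, 787, 394 and 448 on the MET_FLOX arrays and 453, 759, 393 and 369.6 on the MET_KO arrays, and 416, 625, 369.8 and 459 on the MET_FLOX_canertinib arrays and 389, 412, 494 and 246 on the MET_KO_canertinib arrays. Its 3 day 2 arrays were the highest, by a smaller step, and the difference of 0.58 did not pass (SE 0.23, limma adjusted p = 0.376). Rpa2, the middle subunit, went from 103 to 716, from 119.8 to 1033 and from 125 to 216 in the first 3 arms and from 39.5 to 172 in MET_KO_canertinib. It did not pass the filter, and with no filter its difference was 2.01 (SE 0.50, limma adjusted p = 0.154). Its other probe set, which also failed the filter, rose by 3.28, 3.54 and 3.40 on the log2 scale in the first 3 arms. In MET_KO_canertinib that probe set went from 28.2 to 28.8, so the rise of Rpa2 there depends on the probe set.

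TIMELESS and TIPIN form the complex that steadies stalled forks. Tipin had signals of 306, 1159, 396 and 323 on the MET_FLOX arrays and 445, 1801, 361 and 385 on the MET_KO arrays. With canertinib it had 287, 671, 309 and 332 on the MET_FLOX_canertinib arrays and 294, 285, 315 and 414 on the MET_KO_canertinib arrays. The 3 day 2 arrays lay above all others and MET_KO_canertinib was flat. The difference was 1.25 (SE 0.35, limma adjusted p = 0.176), and without MET_KO_canertinib 1.68 (SE 0.28, adjusted p = 0.00875).

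Timeless had signals of 77.9, 389, 175 and 206 on the MET_FLOX arrays and 146, 532, 123 and 231 on the MET_KO arrays. It gave 307, 428, 42.8 and 109 on the MET_FLOX_canertinib arrays and 134, 247, 289 and 351 on the MET_KO_canertinib arrays. The 3 day 2 arrays were again the highest, while the canertinib arms varied from 42.8 to 351 over the other arrays, and the difference of 1.28 did not pass (SE 0.51, limma adjusted p = 0.376). Another Timeless probe set, which did not pass the filter, read 577, 899, 320 and 101 at day 2 in the order of arms. On arrays of the other days it read at most 45.0, so it was highest at day 2 in every arm.

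All 4 measured genes of chromatin assembly and maintenance methylation had the 3 day 2 arrays above the 13 others. Uhrf1 encodes the factor that reads hemimethylated DNA and brings DNMT1 to it, and its signals were 94.2, 1841, 214 and 157 on the MET_FLOX arrays and 65.7, 2933, 200.0 and 137 on the MET_KO arrays. The canertinib arms gave 133, 771, 163 and 170.3 on the MET_FLOX_canertinib arrays and 114, 192, 115 and 200.4 on the MET_KO_canertinib arrays. It was below the array median at day 0 in all 4 arms and highest at day 2 in 3, while in MET_KO_canertinib day 14, at 200.4, lay above day 2, at 192. The difference was 3.08 (SE 0.56, limma adjusted p = 0.0274).

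Dnmt1, the maintenance methyltransferase, gave 913, 1674, 884 and 609 on the MET_FLOX arrays and 596, 2419.5, 740.4 and 667 on the MET_KO arrays. With canertinib it gave 672, 1179, 766 and 839.6 on the MET_FLOX_canertinib arrays and 576, 689, 703 and 879 on the MET_KO_canertinib arrays. The difference of 0.98 did not pass over 4 arms (SE 0.28, limma adjusted p = 0.205) and was 1.22 without MET_KO_canertinib (SE 0.27, adjusted p = 0.0482). Another Dnmt1 probe set that passed the filter went from 10.3 to 151.9 between days 0 and 2 in MET_KO_canertinib. In MET_FLOX_canertinib that set went from 13.9 to 262.5, so the size of the Dnmt1 change with canertinib depends on the probe set. Chaf1b, a subunit of CAF-1, went from 137 to 472, from 242 to 738, from 282 to 645 and from 269 to 346 between days 0 and 2.

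Slbp encodes the protein that binds the stem-loop of replication-dependent histone mRNAs. Its signals were 524, 2258, 959 and 649 on the MET_FLOX arrays and 798, 2532, 756 and 669 on the MET_KO arrays, and 804, 1512, 726 and 879 on the MET_FLOX_canertinib arrays and 659.5, 857, 1083 and 608 on the MET_KO_canertinib arrays. In MET_KO_canertinib day 7, not day 2, was the highest day. Against the mean of the other days the difference was 1.13 (limma adjusted p = 0.0432), and against day 0 it was 1.25 (SE 0.28, adjusted p = 0.091).

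Whether the day 2 response of MET_KO_canertinib differed from that of MET_FLOX was tested in its own limma model, with 6 residual degrees of freedom and day 2 set against the mean of the other days. No gene passed: 0 of 35 replication genes and 0% of all genes were called in either direction. Unadjusted, 16 of 35 had a p below 0.05 for a smaller response, against 2.25% of all genes, and 0 for a larger one, against 2.74%. The median of the 35 differences was -1.21 and that of all genes 0.17. Pcna had a difference of -2.33 (SE 0.51, adjusted p = 0.698) and Uhrf1 of -3.07 (SE 0.73, adjusted p = 0.769). Against the mean of the other 3 arms, an alternative added after the values were seen, 0 of 35 were called, 18 were lower at an unadjusted p below 0.05, where 3.14% of all genes were, and 0 were higher, where 2.53% were. The adjusted threshold called 0.0221% of all genes lower. There Pcna differed by -2.27 (SE 0.41, adjusted p = 0.225), Uhrf1 by -2.94 (adjusted p = 0.285) and Dbf4 by -3.84 (adjusted p = 0.287) by limma.

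Of 8 cell type marker lists, 3 had a summed signal on the MET_KO_canertinib day 2 array above the other 3 day 2 arrays. The summed signal of 9 neutrophil marker genes was 13424 there and 1959 to 4102 on the other day 2 arrays. Of the 9, 8 were higher there than on the other day 2 arrays, and 2, Camp at 36.1 and Cxcr2 at 134, did not exceed the array median. It was highest, at 46549.6, on the day 14 array of the same arm. Cholangiocyte markers summed to 3711 there, against 2210.1 to 3288 on the other day 2 arrays, and endothelial markers to 10568, against 8287 to 10149.5. Of the cholangiocyte markers, Epcam, Sox9, Sctr, Cftr and Tspan8 were higher there than on each other day 2 array, and Krt19, Krt7 and Cldn7 were not. Sctr and Cftr did not exceed the array median. Of the endothelial markers, only Cdh5, Lyve1 and Fcgr2b were higher, and Pecam1, Kdr, Stab2, Clec4g, Tek, Erg and Oit3 were not. The summed hepatocyte markers were 448348 there and 152046 to 478158 on the other day 2 arrays, within whose range it lay. From day 0 to day 2 this sum rose from 275890 to 448348 in MET_KO_canertinib. It fell from 273493 to 201839 in MET_FLOX, from 261239 to 152046 in MET_KO and from 491745 to 478158 in MET_FLOX_canertinib. The Gapdh 3'/5' ratio was 1.35 on the MET_KO_canertinib day 2 array, against 0.776, 0.765 and 1.11 at day 2 of MET_FLOX, MET_KO and MET_FLOX_canertinib. The part of these cell types and of RNA quality in the result was not tested.

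By day 7 the signals were near those of day 0. Single-array medians of day 7 minus day 0 were 0.10, -0.19, 0.06 and 0.15 in the order of arms above. More than 1 log2 unit higher at day 7 were 5, 4, 3 and 4 of 41 genes, against 5.05%, 6.16%, 9.54% and 6.64% of all genes. Uhrf1 was among them in MET_FLOX and MET_KO, and Dbf4 in MET_KO and both canertinib arms. Over 4 arms limma called 0 of 35 at day 7 in either direction, where 0.00737% of all genes were called higher and 0% lower, and 2, Dbf4 and Rfc2, were higher at an unadjusted p below 0.05, where 2.45% of all genes were, with 0 lower, where 2.43% were. More than 1 log2 unit higher at day 14 were 6, 3, 6 and 2 of 41, against 14.1%, 19.5%, 8.57% and 10.9% of all genes. For day 14 against day 0, limma called 0 of 35, where 0.0147% of all genes were called higher and 0.0663% lower, and at an unadjusted p below 0.05 there were 2 higher, where 9.85% of all genes were, and 2 lower, where 6.64% were, neither above the share of all genes. For MET_FLOX and MET_KO, day 14 and day 0 lie in different array sets, so day and array set cannot be told apart there.

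Of the 35 replication genes tested, 6 passed the test for a difference with canertinib. Limma called 2 higher with canertinib, where 24% of all genes were called higher, and 4 lower, where 10.6% were, so the share called lower was near the background and that called higher below it. Rfc2 (0.73, SE 0.13, adjusted p = 0.00297) and Orc1 (0.62, SE 0.16, adjusted p = 0.0113) were higher. Pold2 (-0.75, adjusted p = 0.00817), Orc4 (-0.67, adjusted p = 0.0135), Orc5 (-0.75, adjusted p = 0.0278) and Rfc3 (-0.75, adjusted p = 0.0282) were lower, by limma. All arrays at days 0, 2 and 7 lie in the low set without canertinib and in the high set with it. With the array set as a term, 0 were called, and with each array centred on its median 11 were called, 1 higher and 10 lower. Shares of all genes under these 2 settings are not given here.

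Knockout arms and flox arms did not separate in these genes. Limma called 0 of 35, as it did 0% of all genes in either direction, and 0 of 35 had an unadjusted p below 0.05, where 1.15% of all genes were higher and 1.22% lower. Estimates ran from -0.50 for Orc5 to 0.37 for Timeless. For the genotype by canertinib interaction, 0 of 35 were called, where 0.0147% of all genes were called higher and 0% lower. At an unadjusted p below 0.05, 1 was higher, Rfc2, against 2.45% of all genes, and 0 lower, against 1.97%, which is near the background.

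Of 48 other genes of replication and its checkpoints, 44 were measured and 39 tested. At day 2 against day 0, limma called 2 of 39 higher, against 0.331% of all genes tested, and 0 lower, against 0.0516%. The median difference of the 39 was 0.50, and that of all genes tested was -0.06. Asf1b, a histone chaperone that hands histones to CAF-1, had signals of 121, 935, 77.2 and 388 on the MET_FLOX arrays and 103, 1694, 84.4 and 160.4 on the MET_KO arrays, and 151, 1134, 239 and 502 on the MET_FLOX_canertinib arrays and 150.1, 409, 143 and 363 on the MET_KO_canertinib arrays. Day 2 was the highest day in all arms but MET_KO_canertinib at day 2 lay below day 14 of MET_FLOX_canertinib, and the difference was 2.69 (SE 0.42, limma adjusted p = 0.0139). Topbp1, which acts in origin firing and in ATR activation, had 127, 1357, 317 and 74.0 on the MET_FLOX arrays and 308, 2002, 174 and 76.0 on the MET_KO arrays, and 40.9, 459, 87.8 and 38.1 on the MET_FLOX_canertinib arrays and 50.8, 149, 166 and 10.6 on the MET_KO_canertinib arrays. It was highest at day 2 in 3 arms and at day 7 in MET_KO_canertinib, and the difference was 2.57 (SE 0.49, limma adjusted p = 0.0371).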

How the data were processed

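The values the authors deposited are linear signal intensities, 1 for each probe set, made from biotin-labelled RNA (6 ug per the labels' protocols). MAS5 is named in the submitters' processing notes without a version. Detection calls were not used. The arrays hold 45101 probe sets. After 64 controls were dropped, the 34945 with a single annotated gene were used, leaving out 932 with several genes and 9160 with none. log2(signal + 16) was taken, and probe sets with at least 4 of 16 arrays above their array's median were kept, which left 22315 probe sets and 13575 genes after the probe set with the highest mean over the arrays was taken for each gene. The counts over 18193 genes use no filter. Of the 41 replication genes measured, 30 had several probe sets. limma 3.58.1 in R 4.3.3 was fitted on all 13575 genes with arm and day as terms and an intensity trend, in two-sided tests with Benjamini-Hochberg adjusted p below 0.05 as the threshold. The test was run on simulated data first. The replication genes and other lists were chosen with earlier results of these data known. All 16 signals are given for the genes with the highest means in each role, 2 per role, and for those called at day 2, as for called genes of the other replication list, and also for Cdc6 and Dbf4, which were added after their values were seen. Genes that failed the filter are named. Alternatives were the pseudocount, the filter, the scaling, the probe set rule, the array set, the intensity trend and leaving out arrays or arms. The number of arrays limits the precision.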

Additional observations from a re-analysis of the deposited data

Results flagged for a closer look

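A total of 9 of the 41 replication genes were lower at day 2 than at day 0 in MET_KO_canertinib but higher in each of the other 3 arms, a pattern that 5.19% of all 18193 genes had. They were Cdc6 (-0.33 on the log2 scale in MET_KO_canertinib), Cdt1 (-0.00), Cdc7 (-0.26), Dbf4 (-0.40), Gins3 (-1.04), Pold1 (-0.29), Pold2 (-0.06), Rfc4 (-0.17) and Tipin (-0.04). Other probe sets of Cdt1, Gins3 and Rfc4 rose in MET_KO_canertinib, by 0.59, 0.56 and 0.20, and those of Cdt1 and Gins3 passed the filter. Further probe sets of Cdt1, Cdc7, Dbf4 and Pold1, which did not pass, fell there. The sign for Cdt1, Gins3 and Rfc4 thus depends on the probe set. Each sign rests on 1 array per arm and day, and the difference of signs was not tested as such. Of the 9, 7 passed the filter, and limma's test of the day 2 response in this arm against MET_FLOX called none of them.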

How the results depend on the processing

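Counts of called replication genes moved with the arrays and arms used. For day 2 against day 0, where 4 were called, 1 was called without the intensity trend. Over all genes tested, calls in either direction then went from 52 to 28. With each array left out in turn the count was 0 to 17, where 0 to 171 of all genes tested were called. Alternatives added after seeing the data gave 17 without the MET_KO_canertinib arm, 21 with the arms without canertinib alone and 0 with the canertinib arms alone. For day 2 against the mean of the other days, where 7 were called, the array set as a term gave 2, no intensity trend gave 4, and the same 3 added alternatives gave 22, 25 and 0. Leaving out each array gave 0 to 21. For day 14 against day 0 the arms without canertinib alone gave 2. For canertinib against none, with 6 called, median centring gave 11 and the array set as a term 0, and leaving out each array gave 4 to 9. Outside day 2 against day 0, the shares of all genes called under these settings are not given here. Those counts are therefore not to be read as particular to the replication genes. The causes were not tested. The other counts stayed at 0 when each array was left out. The medians of day 2 minus day 0 in each arm moved by less than 1 SD of the genes under every alternative run. No paired analysis was possible because each arm and day has 1 array and the labels carry no replicate numbers. For the day 2 response, 12 of the settings that leave out an array could be fitted. With 1 array per arm and day, signals below the array median on most arrays limit what can be told of Cdc6, Orc6, Pole and Rpa2.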

Other observations

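Probe sets of a gene did not always move together. For 15 replication genes more than 1 probe set passed the filter, and in 10 of them all had the same sign of day 2 minus day 0, as the mean of MET_FLOX and MET_KO. The 5 with opposite signs were Orc1, Orc3, Orc4, Cdc45 and Prim2. For Cdc45 the probe set used gave 2.15 on the log2 scale and the other -0.90, and for Prim2 the one used gave 1.76 and the others -3.34 and 1.20. For Fen1 the other probe set gave 3.21, above the 2.34 of the one used.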
